A study of Mus musculus with 12 samples.

Results

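The Dlk1-Meg3 domain on mouse chromosome 12 and the Igf2-H19 domain on mouse chromosome 7 were followed through 4 lines of epiblast stem cells (EpiSCs), which are derived from the implanted mouse embryo or kept in its primed pluripotent state. Every probe set whose only gene symbol on the array was Dlk1, Meg3, Rian, Mirg, Dio3, Igf2 or H19 was taken, whatever its values, which gave 21 of the 45037 probe sets that were not controls, for 5 of 18193 genes. Meg3 had 11 of them, Rian 4, Mirg 2, Dlk1 2 and Igf2 2. Dio3 had none paired with it alone, and the probe set for H19 is shared with Mir675, so neither gene was analysed here.

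The lines were haploid EpiSC-2 and haploid EpiSC-1, both labelled strain 129Sv, and diploid EpiSC-2 and diploid EpiSC-1, both labelled strain B6D2F1. Each was measured on 3 Affymetrix arrays of biological replicates, 12 in all, and all 4 were kept in N2B27 with added Activin A and bFGF. Ploidy and strain cannot be told apart in this design. The labels also do not say whether the haploid set came from an egg or a sperm, and each ploidy is represented by 2 lines. The labels do not state whether replicates were separate cultures, so p-values within and between lines measure the spread between these arrays.

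In the mouse, both domains are imprinted, so that each gene is read mainly from the copy inherited from 1 parent. Igf2, a growth factor, and Dlk1, a membrane protein related to the Notch ligand Delta, are read from the paternal copy, as is Dio3, an enzyme that inactivates thyroid hormone. The long RNAs Meg3, Rian, Mirg and H19 are read from the maternal copy. Methylation of a control region on the paternal copy keeps the RNA genes silent there, and loss of Meg3 expression is a known fault of cultured mouse pluripotent cells. Rian and Mirg carry many small nucleolar RNAs and microRNAs, so that the level of the long transcript is often read as a sign of the activity of the whole maternal cluster.

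The start regions of the genes whose signals are described first are given here from RefSeq (GRCm38.p6, 250 bases before to 50 bases after the annotated start, 5′ to 3′ on the gene's strand). Capitals mark the motifs TATAA, TGACGTCA and TGCCGC on either strand. The last of these is the hexamer known to be bound, when methylated, by ZFP57, the protein that keeps imprints through early development.
Meg3 chr12:109540746-109541045 (plus strand): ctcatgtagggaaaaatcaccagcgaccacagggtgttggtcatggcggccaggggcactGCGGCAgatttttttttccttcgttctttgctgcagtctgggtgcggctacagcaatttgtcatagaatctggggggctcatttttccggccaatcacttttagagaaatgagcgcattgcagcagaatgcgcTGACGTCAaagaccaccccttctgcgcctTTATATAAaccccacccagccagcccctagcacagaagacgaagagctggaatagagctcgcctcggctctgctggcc
Igf2 chr7:142658755-142659054 (minus strand): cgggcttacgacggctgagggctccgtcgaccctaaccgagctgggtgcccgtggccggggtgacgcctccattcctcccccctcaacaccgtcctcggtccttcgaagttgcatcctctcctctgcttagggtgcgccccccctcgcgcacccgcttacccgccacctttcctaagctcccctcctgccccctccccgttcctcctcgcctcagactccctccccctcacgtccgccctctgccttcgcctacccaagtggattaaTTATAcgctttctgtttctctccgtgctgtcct
Igf2 chr7:142661222-142661521 (minus strand): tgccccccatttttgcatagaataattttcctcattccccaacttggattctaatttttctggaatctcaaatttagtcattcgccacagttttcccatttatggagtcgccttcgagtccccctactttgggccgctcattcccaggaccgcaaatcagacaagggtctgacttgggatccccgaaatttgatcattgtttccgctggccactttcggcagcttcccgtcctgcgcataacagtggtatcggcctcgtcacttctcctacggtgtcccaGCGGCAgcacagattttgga
Dlk1 chr12:109452573-109452872 (plus strand): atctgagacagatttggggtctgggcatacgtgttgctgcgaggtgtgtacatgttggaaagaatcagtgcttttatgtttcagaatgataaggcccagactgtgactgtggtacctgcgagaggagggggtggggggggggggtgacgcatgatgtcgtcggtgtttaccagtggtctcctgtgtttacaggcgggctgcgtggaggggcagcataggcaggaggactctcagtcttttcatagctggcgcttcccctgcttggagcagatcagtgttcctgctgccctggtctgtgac
RefSeq has 2 Meg3 windows. The Meg3 window shown held 2 overlapping matches to TATAA, 1 to TGACGTCA and 1 to TGCCGC, the last as its reverse complement GCGGCA. The other held none of these. Among 32851 windows of this length at annotated gene starts of the mouse, 24.9% held TATAA, 1.79% TGACGTCA and 11.6% TGCCGC. Of the 4 Igf2 windows in RefSeq, the first shown held 1 match to TATAA and the second 1 to TGCCGC, both as reverse complements, and those not shown held none. The Dlk1 window held none of the 3 motifs. CpG dinucleotides numbered 13 in the Meg3 window shown, 24 and 14 in the Igf2 windows shown and 9 in the Dlk1 window, against a median of 7.0 (quartiles 3.0 and 20.0) over all windows. They numbered 1 in the Meg3 window not shown and 7 and 2 in those of Igf2. Methylation was not measured in these samples.

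Mature microRNAs that lie within the annotated span of a member on the same strand numbered 19 for Mirg, 6 for Rian, 3 for Meg3 and 2 for Igf2 in the RefSeq table, some of them as both arms of 1 precursor. The following were chosen to show what each host transcript carries, with the seed (bases 2 to 8) in capitals. The first pair, both inside Mirg, share their seed, and the others have seeds found once among the mature sequences of these 4 hosts.
mmu-miR-453: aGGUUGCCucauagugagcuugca
mmu-miR-496a-5p: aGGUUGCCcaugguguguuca
mmu-miR-410-3p: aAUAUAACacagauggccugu
mmu-miR-370-3p: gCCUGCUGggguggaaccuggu
mmu-miR-770-3p: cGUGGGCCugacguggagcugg
mmu-miR-483-3p: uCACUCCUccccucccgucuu
The third also lies inside Mirg, the fourth inside Rian, the fifth inside Meg3 and the last inside Igf2. The array reads the long host transcripts, and none of these small RNAs was measured.

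Values were MAS5 signals per probe set on a linear scale, with median signals of 63.4 to 76.3 per array. Differences are on the log2 scale. Of the 21 probe sets, 18 had a mean log2 signal of at least 5.97 (a signal of 62.6), the median over all probe sets, and were tested with 22519 probe sets in all, where a Benjamini-Hochberg adjusted p from limma under 0.05 is called. Both Dlk1 probe sets and 1 of those for Igf2 lay below that level. Of the epiblast markers, Pou5f1, the pluripotency factor also known as Oct4, averaged 6884 in haploid EpiSC-2 and 4264 in haploid EpiSC-1, against 8879 in diploid EpiSC-2 and 9595 in diploid EpiSC-1. The primed markers Fgf5 and Otx2 were at 86.9 and 74.0 in haploid EpiSC-1, below the other 3 lines, where Fgf5 lay between 2332 and 3621 and Otx2 between 2133 and 3962. Sox2, another pluripotency factor, went the other way and was the epiblast marker called higher in the haploid lines, at 3383 in haploid EpiSC-2 and 4537 in haploid EpiSC-1, against 1176 in diploid EpiSC-2 and 1005 in diploid EpiSC-1 (1.85 ± 0.24, limma adjusted p = 0.0188). The sum of 17 epiblast markers was 72854 to 74312 in haploid EpiSC-2 and 52203 to 52461 in haploid EpiSC-1, against 104660 to 107570 in diploid EpiSC-2 and 112750 to 116590 in diploid EpiSC-1. In such bulk samples, fewer cells of a type and less RNA per cell cannot be told apart.

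Igf2 was measured well by probe set 1448152_at. Its signals were 693, 829 and 831 in haploid EpiSC-2, 2199, 2032 and 2162 in haploid EpiSC-1, 794, 767 and 784 in diploid EpiSC-2, and 364, 450 and 476 in diploid EpiSC-1. Haploid EpiSC-1 stood above all other arrays and diploid EpiSC-1 below them, while the arrays of haploid EpiSC-2 and diploid EpiSC-2 overlapped. The line means were 784 ± 79.1 in haploid EpiSC-2, 2131 ± 87.9 in haploid EpiSC-1, 782 ± 13.7 in diploid EpiSC-2 and 430 ± 58.6 in diploid EpiSC-1 (SD, n = 3 each).

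**Figure D1:**
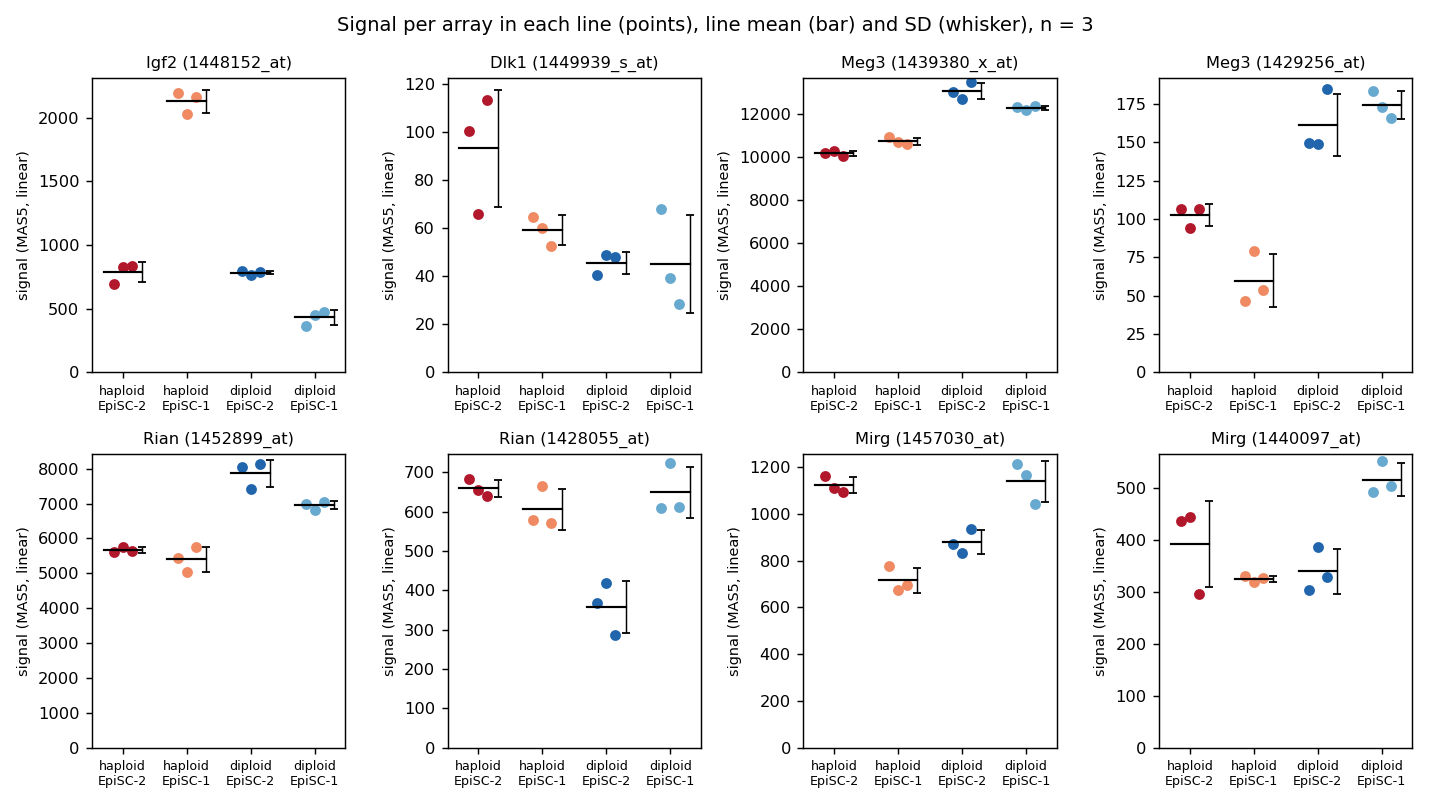
MAS5 signal (linear axis from 0) of 8 probe sets in each array of the 4 lines. Points are arrays, bars are line means and whiskers are ± 1 SD (n = 3). Igf2 was highest in haploid EpiSC-1 (2032 to 2199), and Meg3 1439380_x_at lay between 10064 and 10922 in haploid arrays, all below the diploid arrays (12172 to 13489).

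Between the ploidies, with the line as the unit, Igf2 did not pass the test. The haploid lines differed from the diploid lines by 1.16 ± 0.52 (SE, 95% interval -0.09 to 2.41, limma adjusted p = 0.287). Taken alone, haploid EpiSC-1 was 3.68-fold above the diploid lines (log2 difference 1.88 ± 0.08, adjusted p = 4.07e-11). Haploid EpiSC-2 was above the mean of the diploid lines by 0.44 ± 0.08 (adjusted p = 3.32e-04), but the difference from diploid EpiSC-2 alone was 2.84e-04 (adjusted p = 0.998), and from diploid EpiSC-1 alone it was 0.87 (adjusted p = 1.85e-06).

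The lines of each ploidy also differed from each other in Igf2. Line numbers come from the sample titles, and lines of the same number differ in strain. Haploid EpiSC-2 was 2.72-fold below haploid EpiSC-1 (-1.45 ± 0.09, limma adjusted p = 2.01e-08). Diploid EpiSC-2 was 1.83-fold above diploid EpiSC-1 (0.87 ± 0.09, adjusted p = 2.68e-06). Each of these Igf2 calls between lines was kept without any single array. The other Igf2 probe set, 1415931_at, averaged 18.2 ± 1.39 in haploid EpiSC-2, 33.7 ± 2.81 in haploid EpiSC-1, 18.7 ± 3.85 in diploid EpiSC-2 and 15.2 ± 17.2 in diploid EpiSC-1 (SD, n = 3 each), too dim to be tested.

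Markers of fibroblasts, the cells on which such lines are often derived, moved with ploidy. Of 25 tested markers out of 30, 16 were called higher in the haploid lines and 0 lower by limma, with a median difference of 3.18 against 0.00273 over all genes, where 2.4% of genes were called higher. The sum of the 30 markers was 51202 to 52021 in haploid EpiSC-2 and 53650 to 54127 in haploid EpiSC-1, against 10364 to 10535 in diploid EpiSC-2 and 5087 to 5430 in diploid EpiSC-1. No marker was at 0, and those whose line mean lay under a signal of 62.6 numbered 1, 3, 12 and 19 in that order of the lines. Haploid EpiSC-1 had the highest of these sums and diploid EpiSC-1 the lowest, as for Igf2, while the median sums of the haploid lines were 51579 in EpiSC-2 and 53914 in EpiSC-1 and their Igf2 means were 784 and 2131. The part of fibroblast RNA in the Igf2 result was not tested.

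Dlk1 was dim in all 4 lines. Probe set 1449939_s_at gave 100, 65.9 and 113 in haploid EpiSC-2, 64.8, 60.1 and 52.6 in haploid EpiSC-1, 40.3, 48.7 and 47.7 in diploid EpiSC-2, and 67.9, 39.0 and 28.5 in diploid EpiSC-1. The haploid arrays lay mostly above the diploid ones, but 1 array of diploid EpiSC-1 was above all 3 of haploid EpiSC-1. The haploid mean was 0.74 above the diploid mean on the log2 scale, untested because the mean over all arrays (5.82) was under the level set for testing. The second probe set, 1442724_at, read between 3.31 and 25.2 in every array, with overlapping groups.

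Meg3 gave strong signals in all 4 lines. Probe set 1439380_x_at read 10203, 10281 and 10064 in haploid EpiSC-2, 10922, 10707 and 10606 in haploid EpiSC-1, 13024, 12726 and 13489 in diploid EpiSC-2, and 12313, 12172 and 12377 in diploid EpiSC-1. Every haploid array lay below every diploid array. The haploid lines differed from the diploid lines by -0.28 ± 0.14 (SE, 95% interval -0.61 to 0.05), which did not pass the test on line means (limma adjusted p = 0.333). The suffix x_at marks probe sets whose probes can bind other transcripts too, and s_at and a_at those that match several transcripts.

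Haploid and diploid arrays were fully apart on 4 of the 18 tested probe sets, each with the haploid arrays lower, against 12.2% of all tested probe sets lower in this way and 27.7% apart in either direction. These were Meg3 1439380_x_at, 1452905_at and 1429256_at, and Rian 1452899_at. Meg3 1429256_at read 107, 94.0 and 106 in haploid EpiSC-2, 46.3, 79.0 and 53.6 in haploid EpiSC-1, 150, 149 and 185 in diploid EpiSC-2, and 184, 173 and 166 in diploid EpiSC-1. Its difference between the ploidies was the lowest of the 18, at -1.12 ± 0.37 (95% interval -2.01 to -0.22, limma adjusted p = 0.174, unadjusted p = 0.0217), and was not called. Meg3 1452905_at lay between 7031 and 8372 in the haploid arrays and between 8985 and 10508 in the diploid arrays.

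With the line as the unit, 0 of the 18 probe sets were called between the ploidies by limma, against 3.07% of all tested probe sets (2.02% higher and 1.05% lower). At an unadjusted p under 0.05 there were 2, Meg3 1429256_at and Rian 1452899_at. Differences were below 0 for 14 of the 18 and for 10834 of all 22519, with a median of -0.18 against 0.024 over all probe sets. Meg3 accounted for 9 of those 14, with a median of -0.22 over its 11 probe sets. With arrays as units and the line as a random block, limma called 4 of the 18, against 3562 of 22519 over the array. Of these 4, Igf2 was higher (adjusted p = 0.0395) and 3 were lower. With the replicate number added to that fit, 1 was called, lower, against 3048 of 22519. On simulated data with spread between lines, most calls of the random-block fit were on unchanged probe sets.

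**Figure D2:**
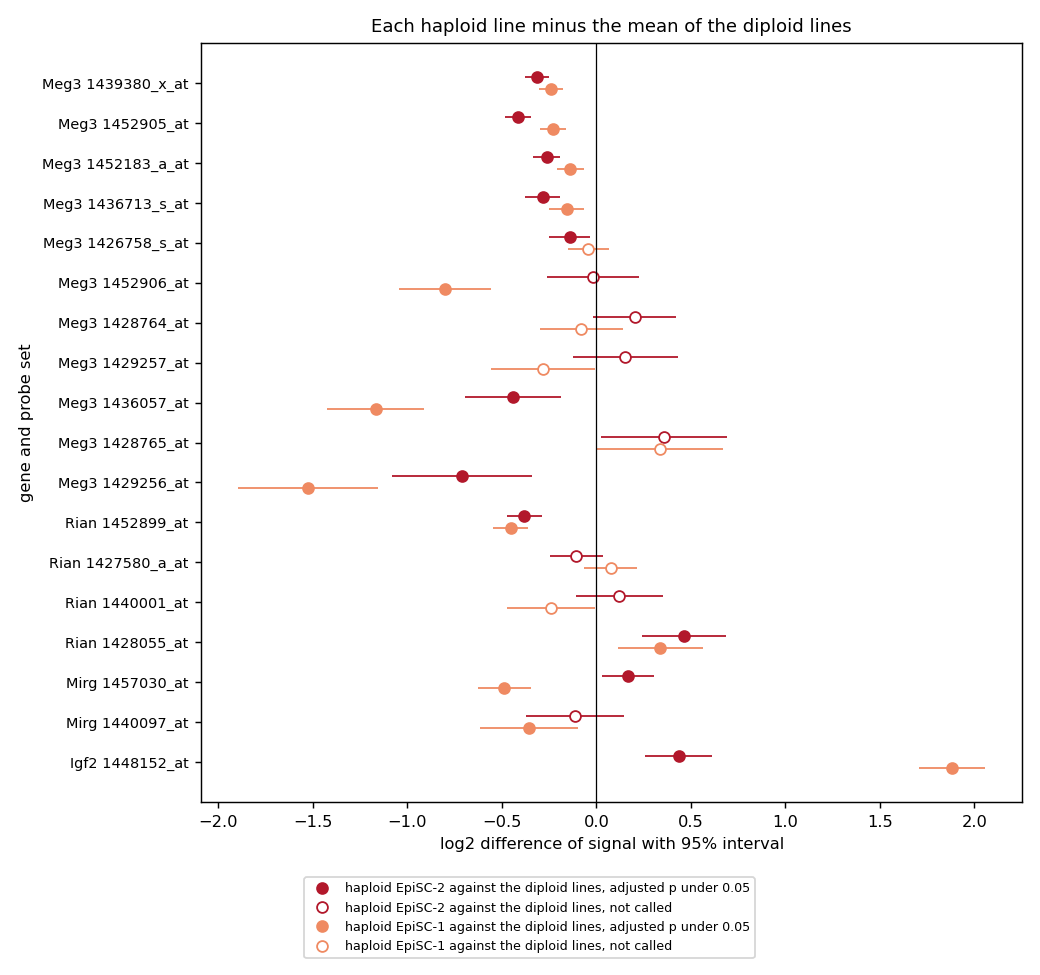
Log2 difference of each haploid line from the mean of the diploid lines (horizontal axis) for the 18 tested probe sets (vertical axis), with 95% intervals. Filled points passed an adjusted p under 0.05 and open points did not. Meg3 1429256_at and 1436057_at lay furthest below 0 and Igf2 furthest above 0 in haploid EpiSC-1 (-1.52, -1.17 and 1.88). Both of these Meg3 probe sets were dim, with mean log2 signals of 6.83 and 7.29 over the arrays.

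Taken one at a time against the diploid lines, each haploid line had lower Meg3 on part of the probe sets. In haploid EpiSC-2, 7 of 11 Meg3 probe sets were called lower and 0 higher by limma, and in haploid EpiSC-1 likewise 7 lower and 0 higher, against 28.1% and 30.9% of all probe sets called lower in these comparisons. Of these, 1439380_x_at, 1452905_at, 1452183_a_at, 1436713_s_at, 1436057_at and 1429256_at were called lower in both lines. The 2 comparisons share the diploid arrays. The differences ran between -0.71 (1429256_at, adjusted p = 0.00247) and 0.36 (1428765_at, adjusted p = 0.062) in haploid EpiSC-2 and between -1.52 (1429256_at, adjusted p = 1.57e-06) and 0.34 (1428765_at, adjusted p = 0.0703) in haploid EpiSC-1. On 1439380_x_at they were -0.32 ± 0.03 in haploid EpiSC-2 (adjusted p = 3.2e-07) and -0.24 ± 0.03 in haploid EpiSC-1 (adjusted p = 4.2e-06), a 1.25-fold and a 1.18-fold lower signal. Part of the calls in haploid EpiSC-1 depended on the scaling. After quantile normalization 1439380_x_at was at -0.06 (limma adjusted p = 0.072), 1452905_at at -0.06 (0.114), 1436713_s_at at -0.07 (0.156) and 1452183_a_at at -0.02 (0.641), none of them called. Centring the arrays kept all 7 lower calls of haploid EpiSC-1. Against diploid EpiSC-2 alone, 1436713_s_at (-0.09, 0.146) and 1452183_a_at (-0.0031, 0.948) were not called in haploid EpiSC-1, nor was 1436057_at in haploid EpiSC-2 (-0.16, 0.318).

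Probe set 1426758_s_at was called in haploid EpiSC-2 (-0.14, limma adjusted p = 0.0257) and not in haploid EpiSC-1 (-0.04, adjusted p = 0.479), and the difference between those lines was not called (-0.10, adjusted p = 0.18). The call in haploid EpiSC-2 was lost without diploid EpiSC-1 replicate 2 (-0.12, adjusted p = 0.0539), diploid EpiSC-2 replicate 3 (-0.12, 0.0513), haploid EpiSC-2 replicate 2 (-0.13, 0.0891) or haploid EpiSC-2 replicate 3 (-0.11, 0.114). The call for 1452906_at was in haploid EpiSC-1 (-0.80 ± 0.11, limma adjusted p = 1.7e-05), where the signals averaged 336 ± 55.5, against 573 ± 40.3 in haploid EpiSC-2, 536 ± 76.1 in diploid EpiSC-2 and 633 ± 67.1 in diploid EpiSC-1 (SD, n = 3 each). That difference between the haploid lines was itself called (0.78, adjusted p = 1.86e-04).

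The Meg3 probe sets split between the haploid lines. Of 11, limma called 4 higher and 3 lower in haploid EpiSC-2 than in EpiSC-1, against 22% and 25.7% of all tested probe sets. The 4 higher were 1429256_at (0.81 ± 0.20, adjusted p = 0.00356), 1452906_at (0.78), 1436057_at (0.73) and 1429257_at (0.44). The 3 lower differed less, 1452905_at by -0.19 and 1452183_a_at and 1436713_s_at by -0.13 each. Probe set 1436057_at averaged 153 ± 8.19 in haploid EpiSC-2 and 92.6 ± 10.1 in haploid EpiSC-1, against 171 ± 10.9 in diploid EpiSC-2 and 251 ± 18.2 in diploid EpiSC-1 (SD, n = 3 each).

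Among the smaller of these differences, several rested on single arrays. The call for 1436713_s_at (limma adjusted p = 0.0497) was lost without 9 of the 12 arrays, with the adjusted p between 0.0555 and 0.186, and kept only without a diploid EpiSC-2 array. That for 1452183_a_at was lost without haploid EpiSC-2 replicate 1 (-0.10, adjusted p = 0.0665). That for 1429257_at was lost without haploid EpiSC-1 replicate 2 (0.39, 0.0772) or 3 (0.40, 0.0761) and without haploid EpiSC-2 replicate 1 (0.36, 0.0958) or 3 (0.44, 0.052). Centring each array on its median moved the median of all probe sets from -0.04 to 0.12 in this comparison. It turned 1452183_a_at and 1436713_s_at to 0.03 each, not called, and left 1452905_at at -0.03 (adjusted p = 0.67). None of the 3 lower calls was kept after centring, while quantile normalization kept all 3.

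The diploid lines differed in Meg3 on more probe sets. Diploid EpiSC-2 was called lower than diploid EpiSC-1 on 7 of 11 and higher on 2 by limma, against 29.4% and 22.3% of all tested probe sets. The lower ones were led by 1428765_at (-0.91, adjusted p = 6.81e-04), 1428764_at (-0.90, adjusted p = 1.77e-05) and 1429257_at (-0.66, adjusted p = 0.00177). The higher ones were 1452905_at (0.16, adjusted p = 0.00209) and 1439380_x_at (0.09, adjusted p = 0.0398), and quantile normalization turned both (-0.04, not called, and -0.12, called lower). Centring also ended the call for 1439380_x_at (0.08, adjusted p = 0.224). The call for 1439380_x_at was lost without 9 of the 12 arrays, with the adjusted p up to 0.142, and kept without diploid EpiSC-2 replicate 2, haploid EpiSC-1 replicate 2 or haploid EpiSC-2 replicate 3. That for 1436713_s_at (-0.14, adjusted p = 0.027) was lost without diploid EpiSC-1 replicates 1 (0.062) or 2 (0.0763) and without diploid EpiSC-2 replicates 1 (0.12) or 3 (0.0874).

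The probe sets of Meg3 disagreed with each other. Over the 12 arrays, the 55 pairs of Meg3 probe sets had correlations of log2 signal between -0.613 and 0.963, with a median of 0.456 and 46 above 0. The arrays of a line share that line's state, so these values describe 4 lines more than 12 samples. The platform annotation does not give the part of the transcript that each probe set reads.

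Rian, the host of small nucleolar RNAs and of mmu-miR-370-3p shown above, was lower in the haploid arrays on 1452899_at. Its signals were 5608, 5756 and 5641 in haploid EpiSC-2, 5444, 5030 and 5744 in haploid EpiSC-1, 8037, 7414 and 8139 in diploid EpiSC-2, and 6987, 6821 and 7040 in diploid EpiSC-1. The haploid lines overlapped each other and lay below both diploid lines, of which EpiSC-2 was above EpiSC-1. Between the ploidies the difference was -0.42 ± 0.16 (95% interval -0.81 to -0.02, limma adjusted p = 0.233, unadjusted p = 0.0406). Against the diploid lines, haploid EpiSC-2 differed by -0.38 (adjusted p = 2.28e-06) and haploid EpiSC-1 by -0.45 (adjusted p = 2.4e-07). With the mean of all Rian probe sets these were 0.02 and -0.07, not called.

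Rian 1428055_at went the other way. It averaged 660 ± 21.6 in haploid EpiSC-2 and 606 ± 51.7 in haploid EpiSC-1, against 357 ± 66.7 in diploid EpiSC-2 and 649 ± 65.2 in diploid EpiSC-1 (SD, n = 3 each). Diploid EpiSC-2 stood apart below the other 3 lines, which overlapped. The signal was called higher than in the diploid lines in haploid EpiSC-2 (0.46, limma adjusted p = 0.00137) and in haploid EpiSC-1 (0.34, adjusted p = 0.01). The call in haploid EpiSC-1 was lost without its replicate 2 (0.27, adjusted p = 0.0637), after centring (0.14, 0.233) and after quantile normalization (0.17, 0.167), and against diploid EpiSC-1 alone the value was -0.10 (adjusted p = 0.493). The call in haploid EpiSC-2 was also lost against diploid EpiSC-1 alone (0.03, adjusted p = 0.867). Diploid EpiSC-2 was below diploid EpiSC-1 by -0.87 (adjusted p = 2.7e-05).

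The remaining Rian probe sets did not separate the ploidies. Probe set 1427580_a_at averaged 1832 ± 178 in haploid EpiSC-2 and 2076 ± 137 in haploid EpiSC-1, against 1694 ± 60.3 in diploid EpiSC-2 and 2288 ± 172 in diploid EpiSC-1 (SD, n = 3 each), and was called lower in diploid EpiSC-2 than in diploid EpiSC-1 (-0.43, limma adjusted p = 2.41e-04). Probe set 1440001_at was called higher in haploid EpiSC-2 than in EpiSC-1 (0.36, adjusted p = 0.0273), which was lost without haploid EpiSC-1 replicate 2 (0.27, 0.117) or 3 (0.36, 0.063) and without haploid EpiSC-2 replicate 2 (0.35, 0.0641) or 3 (0.35, 0.0683).

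Mirg, the host of the largest of these microRNA groups, differed between the lines of each ploidy. Probe set 1457030_at read 1163, 1112 and 1095 in haploid EpiSC-2, 777, 674 and 693 in haploid EpiSC-1, 872, 833 and 936 in diploid EpiSC-2, and 1211, 1165 and 1040 in diploid EpiSC-1. Haploid EpiSC-2 overlapped diploid EpiSC-1 at the top, diploid EpiSC-2 lay between, and haploid EpiSC-1 was below all other arrays. Haploid EpiSC-2 was 1.57-fold above haploid EpiSC-1 (0.65 ± 0.08, limma adjusted p = 5.21e-06), and diploid EpiSC-2 was 1.29-fold below diploid EpiSC-1 (-0.37 ± 0.08, adjusted p = 8.02e-04).

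Between the ploidies Mirg 1457030_at differed by -0.16 ± 0.31 (95% interval -0.90 to 0.58, limma adjusted p = 0.819). Haploid EpiSC-1 was below the diploid lines by -0.49 (adjusted p = 9.04e-06). Haploid EpiSC-2 was above them by 0.17 (adjusted p = 0.0369), a call lost without any array of haploid EpiSC-2 (adjusted p = 0.135, 0.0738 and 0.0536 for replicates 1, 2 and 3), without diploid EpiSC-1 replicate 3 (0.0784) and without diploid EpiSC-2 replicate 1 (0.0587) or 2 (0.0707). It was also lost after centring (0.13, 0.114) or quantile normalization (0.12, 0.123). Probe set 1440097_at averaged 392 ± 83.6 in haploid EpiSC-2 and 325 ± 5.83 in haploid EpiSC-1, against 339 ± 42.6 in diploid EpiSC-2 and 516 ± 31.9 in diploid EpiSC-1 (SD, n = 3 each). It was called lower in haploid EpiSC-1 than in the diploid lines (-0.36, adjusted p = 0.0167). That call was lost without haploid EpiSC-1 replicate 2 (-0.34, adjusted p = 0.0514) and against diploid EpiSC-2 alone (-0.05, adjusted p = 0.753). The probe set was also called lower in diploid EpiSC-2 than in diploid EpiSC-1 (-0.61, adjusted p = 0.00203).

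**Figure D3:**
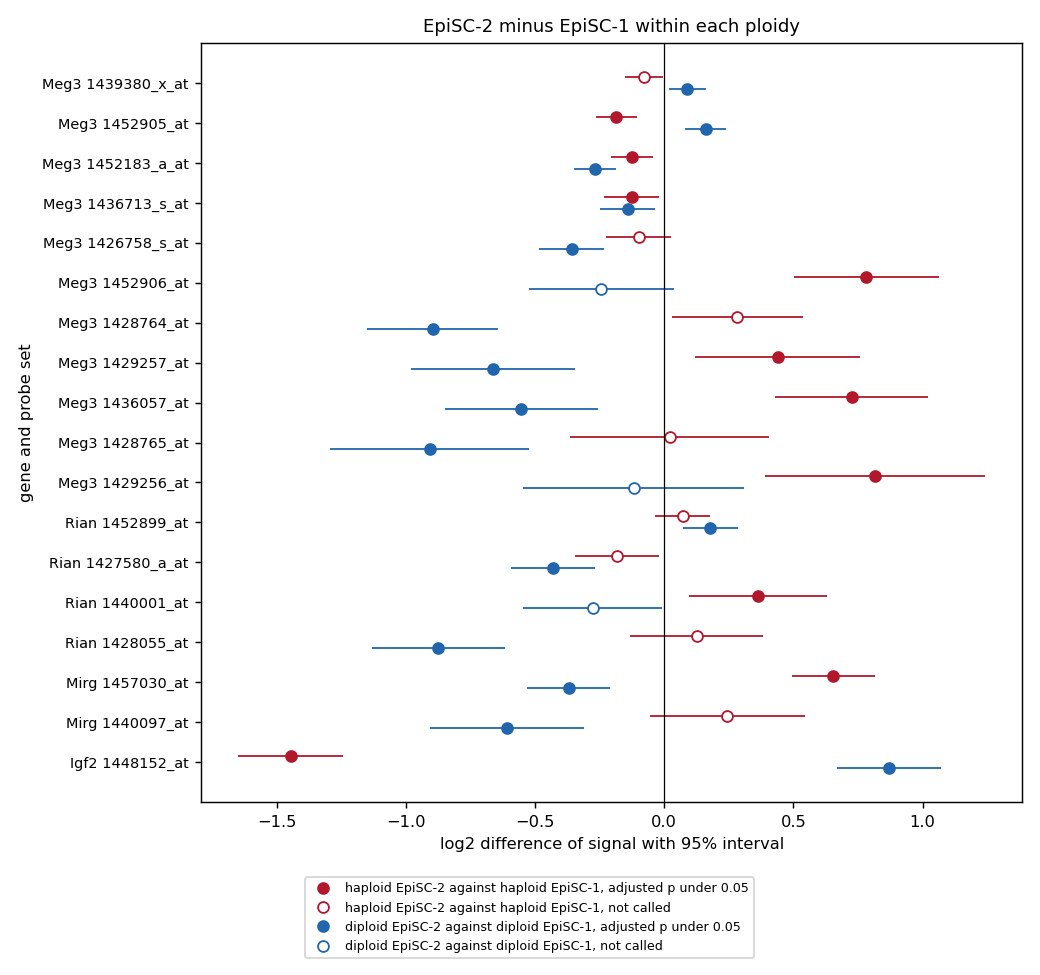
Log2 difference of EpiSC-2 from EpiSC-1 (horizontal axis) within the haploid and within the diploid lines for the 18 tested probe sets, with 95% intervals. Filled points passed an adjusted p under 0.05. Igf2 was lower in haploid EpiSC-2 (-1.45) and higher in diploid EpiSC-2 (0.87). Mirg 1457030_at was higher in haploid EpiSC-2 (0.65) and lower in diploid EpiSC-2 (-0.37).

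Counted over all genes of both domains, limma called 10 of 18 probe sets between the haploid lines (6 higher and 4 lower in EpiSC-2), against 47.8% of all probe sets. After centring these were 9 higher and 1 lower, and after quantile normalization 8 and 6. Between the diploid lines 15 of 18 were called (4 higher and 11 lower in EpiSC-2), against 51.6%. These became 3 and 12 after centring and 1 and 12 after quantile normalization. Haploid EpiSC-2 had 11 called against the diploid lines (3 higher and 8 lower) where 59.7% of all were called (31.6% higher and 28.1% lower). Haploid EpiSC-1 had 12 (2 higher and 10 lower) where 67.3% were (36.5% higher and 30.9% lower). Taken without direction, the shares called lie near those of the whole array, apart from the diploid pair. By direction, lower calls outnumbered higher ones in each haploid line against the diploid lines. Over the whole array, higher calls were more frequent with the values as deposited. After centring, lower calls outnumbered higher ones there too (6915 against 6390 for haploid EpiSC-2 and 9660 against 5785 for haploid EpiSC-1). After quantile normalization they did as well (6899 against 6551 and 8324 against 6932). Meg3 alone holds 11 of the 18 probe sets, so these are not counts of separate genes.

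Over the arrays, Igf2 correlated negatively with most probe sets of the RNA genes of the Dlk1-Meg3 domain. Among 74 pairs of probe sets of different genes among Meg3, Rian and Mirg, the correlation of log2 signal had a median of 0.44 (-0.738 to 0.932). Between Igf2 1448152_at and the 17 tested probe sets of these genes it had a median of -0.515 (-0.971 to 0.0054), with 1 above 0. The 12 arrays hold 4 lines, so these correlations describe differences between lines.

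The genes whose signals over the 12 arrays were most like a member's brightest probe set, among 11101 genes, came mostly from other chromosomes. For Meg3 they were Mtcl1 (Pearson r = 0.992), Tdgf1, the Nodal co-receptor Cripto (0.991), and Cfap20dc (0.988). For Rian all 3 lie on chromosome 12, namely Crip2 (0.994), Siva1 (0.983) and Wars (0.981). For Mirg they were Nat10 (0.981), Lysmd2 (0.973) and Eef1akmt1 (0.970). For Igf2 they were Inpp5a (0.992), itself on chromosome 7, Ecm1 (0.990) and Acap2 (0.989).

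Genes around Igf2 on chromosome 7 also differed between the haploid lines. The 10 tested genes on either side, in the order of the RefSeq annotation, were taken after values had been seen. Of these 20, limma called 14 lower and 1 higher in haploid EpiSC-2 than in EpiSC-1, against 30.1% of all genes called lower and 24.9% higher. Their median difference was -0.58 against -0.05 over all genes, and -0.42 after centring the arrays. Ctsd, the lysosomal protease cathepsin D, differed by -1.21 ± 0.04, Chid1 by -1.15 ± 0.12, and Cd81, a tetraspanin of the cell surface, by -1.05 ± 0.04. The imprinted growth restrainer Phlda2 was the gene called higher (0.61 ± 0.07, adjusted p = 4.93e-06).

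The same 20 genes were mostly higher in haploid EpiSC-1 than in the diploid lines, with 14 called higher and 2 lower by limma (median 0.60, 0.40 after centring), against 38.1% and 34.7% of all genes. In haploid EpiSC-2 against the diploid lines the counts were 7 higher and 8 lower (median 0.08), where 32.7% and 32.6% of all genes were called. Between the diploid lines, 7 were higher and 5 lower in EpiSC-2 (median 0.11), where 26% and 28.9% of all genes were called. Between the ploidies, 2 were called higher, Kcnq1ot1, an imprinted long RNA (5.64), and Lsp1 (2.94), and Phlda2 lower (-2.34), where 2.4% and 1.05% of all genes were called.

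**Figure D4:**
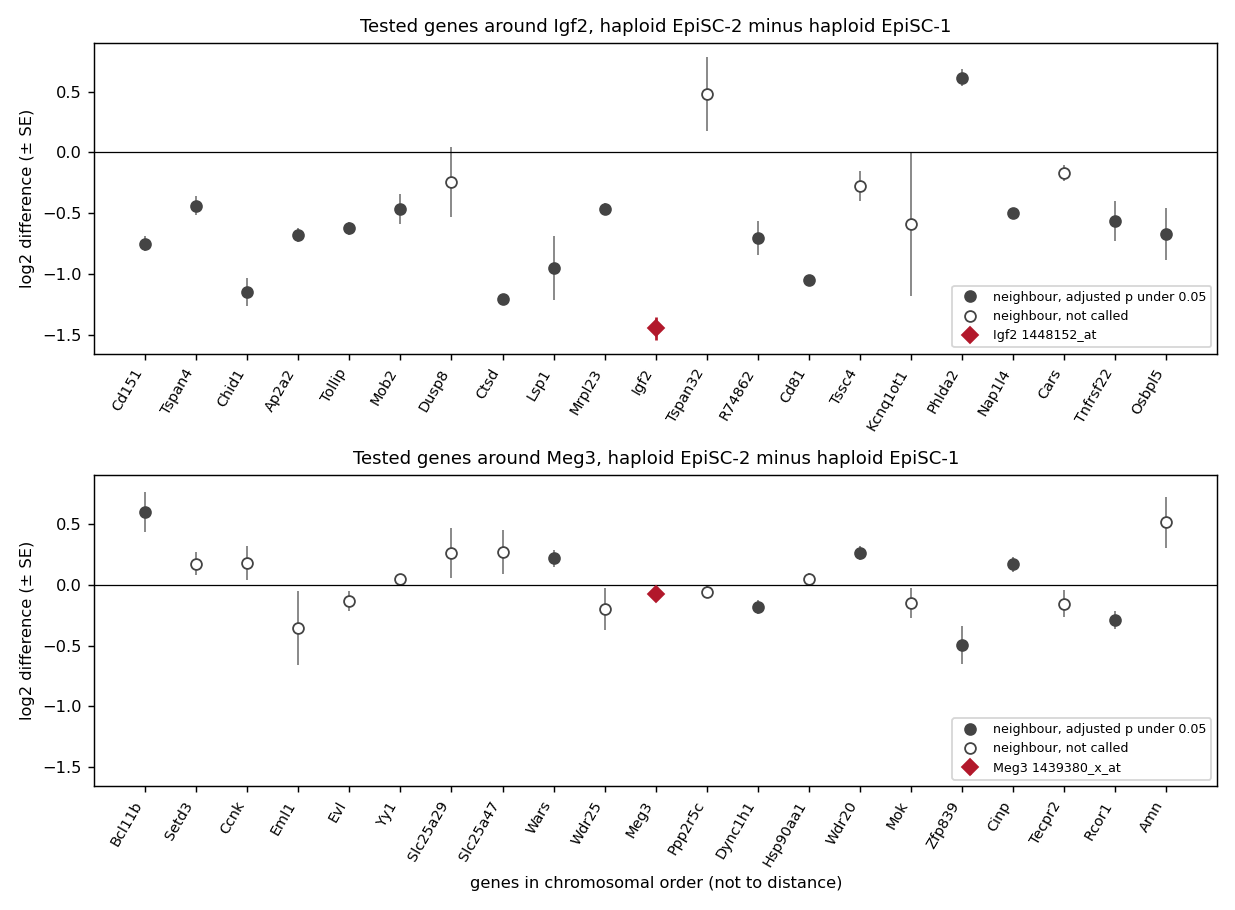
Log2 difference of haploid EpiSC-2 from haploid EpiSC-1 (± SE) for the 10 tested genes on each side of Igf2 (upper) and of Meg3 (lower), in chromosomal order and not to distance. Filled circles passed an adjusted p under 0.05 and the diamond is Igf2 or Meg3. The circles around Igf2 also include imprinted genes such as Phlda2. Around Igf2, 14 of 20 genes were called lower, with a median of -0.58, and around Meg3 3 of 20, with a median of 0.05.

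Around Meg3 the 20 nearest tested genes gave 4 called higher and 3 lower between the haploid lines (median 0.05, or 0.21 after centring), where 24.9% and 30.1% of all genes were called. Haploid EpiSC-2 against the diploid lines gave 5 higher and 8 lower (median -0.11), where 32.7% and 32.6% of all genes were called. Haploid EpiSC-1 gave 4 higher and 6 lower (median -0.06, or -0.26 after centring), where 38.1% and 34.7% were. Diploid EpiSC-2 against EpiSC-1 gave 6 higher and 3 lower, with a median of 0.00384, where 26% and 28.9% were. Between the ploidies limma called 0 of 20 (median -0.11, 1 at an unadjusted p under 0.05, Eml1), where 2.4% of all genes were called higher and 1.05% lower.

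Lists of related genes were read in the same comparisons, each gene by its brightest probe set. For each list below, the shares of all genes called between the ploidies were 2.4% higher and 1.05% lower. Between the haploid lines they were 24.9% higher and 30.1% lower in EpiSC-2. In the list of neighbours of the Dlk1-Dio3 domain, 0 of 11 tested genes were called between the ploidies by limma (median -0.03, 0 also at an unadjusted p under 0.05), and 2 were higher and 1 lower in haploid EpiSC-2 than in EpiSC-1. Wars, a tryptophan tRNA ligase, averaged 823 in haploid EpiSC-2 and 709 in haploid EpiSC-1, against 1265 in diploid EpiSC-2 and 1005 in diploid EpiSC-1, a difference between the ploidies of -0.56 ± 0.25 (limma adjusted p = 0.289). Slc25a47, Ppp2r5c and Evl were likewise not called (0.51, -0.27 and 0.32). Wdr20 (0.26) and Wars (0.22) were called higher in haploid EpiSC-2 than in EpiSC-1.

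In the list of neighbours of the Igf2-H19 domain, 1 of 7 tested genes was called between the ploidies by limma. Lsp1, an actin-binding protein of leukocytes, averaged 328 in haploid EpiSC-2 and 632 in haploid EpiSC-1, against 77.3 in diploid EpiSC-2 and 49.2 in diploid EpiSC-1 (2.94 ± 0.44, adjusted p = 0.026). Mrpl23, Dusp8 and Mob2 were not called (-0.32, 0.42 and 0.31). Between the haploid lines, 5 of the 7 were called lower in EpiSC-2 and 0 higher, against 30.1% and 24.9% of all genes. Ctsd and Cd81 were among the lower ones.

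Imprint maintenance and locus regulators, a list that holds ZFP57, CTCF, the DNA methyltransferases and Polycomb proteins, had 0 of 26 tested genes called between the ploidies by limma (median -0.03, 3 at an unadjusted p under 0.05). Tet1, which oxidises methylated cytosine, averaged 1319 in haploid EpiSC-2 and 961 in haploid EpiSC-1, against 2519 in diploid EpiSC-2 and 2744 in diploid EpiSC-1 (-1.22 ± 0.24, limma adjusted p = 0.0565). The methyltransferase Dnmt3b averaged 10580 in haploid EpiSC-2 and 5118 in haploid EpiSC-1, against 14465 in diploid EpiSC-2 and 21772 in diploid EpiSC-1 (-1.27 ± 0.36, adjusted p = 0.127). The Polycomb genes Suz12 (-0.49) and Jarid2 (-0.54) were not called. Between the haploid lines, 13 were higher and 6 lower in EpiSC-2, with Dnmt3b at 1.05 ± 0.06 (adjusted p = 9.65e-09) and the cohesin gene Stag2 at 0.42.

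Of 16 tested IGF ligands, receptors and binding proteins, limma called 3 higher and 1 lower in the haploid lines. The binding protein Igfbp5 averaged 2027 in haploid EpiSC-2 and 8627 in haploid EpiSC-1, against 85.3 in diploid EpiSC-2 and 163 in diploid EpiSC-1 (5.15 ± 0.68, adjusted p = 0.0193). Igfbp7 (3.63 ± 0.42, adjusted p = 0.0124) and the receptor substrate Irs1 (1.60 ± 0.25, adjusted p = 0.0297) were also higher. Igf2r, the imprinted receptor that clears IGF2, averaged 402 in haploid EpiSC-2 and 276 in haploid EpiSC-1, against 980 in diploid EpiSC-2 and 1068 in diploid EpiSC-1 (-1.62 ± 0.29, adjusted p = 0.0408). Between the haploid lines, 8 were higher and 6 lower in EpiSC-2, with the adaptors Grb10 (2.64 ± 0.05) and Irs4 (6.07 ± 0.26) called higher.

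Delta and Notch partners of Dlk1 had 0 of 19 tested genes called between the ploidies by limma (median 0.20, 6 at an unadjusted p under 0.05), where the lowest adjusted p were those of the protease gene Adam10 (1.33 ± 0.27, 0.0592), Sox9 (2.21 ± 0.46, 0.0614), Fn1 (1.64 ± 0.43, 0.106) and the Notch ligand Jag1 (1.04 ± 0.30, 0.135). Between the haploid lines 5 were higher and 8 lower in EpiSC-2. The Notch target Hes1 was higher (0.98 ± 0.06) and the matrix gene Fn1 lower (-0.79 ± 0.06). Of 13 tested thyroid hormone genes around Dio3, 0 were called higher and 1 lower in the haploid lines. That gene was Klf9, a thyroid hormone target, at 1908 in haploid EpiSC-2 and 1783 in haploid EpiSC-1, against 5174 in diploid EpiSC-2 and 4395 in diploid EpiSC-1 (-1.37 ± 0.20, adjusted p = 0.024). Sephs2 (-0.63), Slc7a5 (-0.74) and Secisbp2 (-0.64) were not called, and between the haploid lines 4 genes of the list were higher and 3 lower in EpiSC-2, Secisbp2 (0.80) and Slc7a5 (0.38) among the higher.

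In the imprinted gene network, genes found to be co-expressed with Igf2 and H19 in the mouse, limma called 4 of 17 higher and 2 lower in the haploid lines. Mest, a paternally read gene, averaged 9035 in haploid EpiSC-2 and 4184 in haploid EpiSC-1, against 1110 in diploid EpiSC-2 and 704 in diploid EpiSC-1 (2.80 ± 0.41, adjusted p = 0.024). Ndn, also paternally read, averaged 5220 in haploid EpiSC-2 and 4079 in haploid EpiSC-1, against 1612 in diploid EpiSC-2 and 1477 in diploid EpiSC-1 (1.58 ± 0.22, adjusted p = 0.0208). Slc38a4 was higher (1.72 ± 0.26, adjusted p = 0.0265), as was the matrix gene Dcn, which the list of fibroblast markers also holds (3.97, adjusted p = 0.0361). Phlda2, a maternally read gene, averaged 511 in haploid EpiSC-2 and 334 in haploid EpiSC-1, against 1515 in diploid EpiSC-2 and 2888 in diploid EpiSC-1 (-2.34 ± 0.38, adjusted p = 0.033), and the maternally read Igf2r is given above. Of the 11 genes not called between the ploidies, Plagl1 was at -0.56 and Magel2 at -0.36, while Peg3 was at 0.62. The list was not divided by parental copy, so the genes labelled here do not stand for all of it. Between the haploid lines 9 were higher and 5 lower in EpiSC-2, with Plagl1, a regulator of that network, lower (-0.89 ± 0.05).

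The calls of list genes between the ploidies depended on which line was left out, and each such fit leaves a single line on that side. Of 10 such genes named above, leaving Dcn aside, 2 were called without haploid EpiSC-2 (Igfbp5 and Igfbp7), 0 without haploid EpiSC-1 (adjusted p between 0.0713 and 0.227), 7 without diploid EpiSC-2 and 4 without diploid EpiSC-1. Over the array, the count of 692 called probe sets fell most without haploid EpiSC-1, less without haploid EpiSC-2 and less again without either diploid line.

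Markers of other cell types were read alongside, where 2.4% of all genes were called higher and 1.05% lower between the ploidies. Of 16 tested epiblast markers, limma called 1 higher and 3 lower in the haploid lines. Of 6 tested endoderm markers 1 was called higher and 0 lower, of 8 mesoderm markers 2 higher and 0 lower, of 6 trophoblast and extraembryonic markers 1 higher and 0 lower, and of 7 neural markers 2 higher and 2 lower. Summed endoderm marker signal was 4230 to 4593 in haploid EpiSC-2 and 1155 to 1339 in haploid EpiSC-1, against 1836 to 2015 in diploid EpiSC-2 and 3146 to 3385 in diploid EpiSC-1. Mirg 1457030_at was higher in the same line of each ploidy as this sum. The part of such cells in the Mirg result was not tested. Trophoblast sums ran from 11409 to 11809 in haploid EpiSC-2 and 17469 to 18088 in haploid EpiSC-1, against 26712 to 28156 in diploid EpiSC-2 and 8582 to 8868 in diploid EpiSC-1, with the higher of each pair in the same line as for Igf2. Most of that sum came from the epithelial keratins Krt8 and Krt18, at 14315 and 12513 in diploid EpiSC-2 and at 3602 and 4590 in diploid EpiSC-1. The trophoblast markers Cdx2, Plac1 and Krt7 did not follow it between the diploid lines, and none of them was called. They were at 12.7, 83.2 and 142 in diploid EpiSC-2 and 16.9, 98.6 and 177 in diploid EpiSC-1. Tfap2c did follow it, at 172 in diploid EpiSC-2 and 34.9 in diploid EpiSC-1 (2.34, limma adjusted p = 7.52e-07). Between the haploid lines, Plac1 and Tfap2c were called in the direction of the sum, at 163 and 265 in EpiSC-2 and 280 and 593 in EpiSC-1. Cdx2 was at 357 and 991 there, not called, and Krt7 went the other way (215 and 68.3). The part of these cells in the Igf2 result was not tested either. Mesoderm sums were 3564 to 3755 in haploid EpiSC-2 and 2059 to 2395 in haploid EpiSC-1, against 1613 to 1805 in diploid EpiSC-2 and 1772 to 1827 in diploid EpiSC-1. Neural sums were 4810 to 5076 in haploid EpiSC-2 and 4797 to 4981 in haploid EpiSC-1, against 10773 to 10959 in diploid EpiSC-2 and 6366 to 6493 in diploid EpiSC-1.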

How the data were processed

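RNA of 12 samples was read on Affymetrix mouse 430 2.0 arrays, 3 per line. Each deposited value was a linear MAS5 intensity of 1 probe set. MAS5 is named, without a version, in the submitters' processing notes. On every array the mean after trimming 2% at each end was the same, so the arrays had been scaled to a common level. Control probe sets (64 of 45101) were dropped. The platform annotation gave 1 symbol for 34945 probe sets, several for 932 and none for 9160, and genes were taken only from the first. RefSeq GRCm38.p6 gave chromosomes, gene order and sequences.

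Signals were used as log2 values without a pseudocount. Probe sets with a mean log2 signal of at least 5.97 were fitted with limma 3.58.1 in R 4.3.3 (statmod 1.5.0), with an intensity trend. Haploid and diploid cells were compared on the 4 line means, so that the line was the unit, and lines were compared on group means over all 12 arrays. P-values were adjusted by Benjamini-Hochberg over all 22519 probe sets, and tests were two-sided. The steps were tested on simulated data. There, 2-fold and 4-fold changes put into lines that vary like these were not recovered on line means. A missing call between the ploidies therefore does not show equal levels. On the deposited data the same fit called 692 probe sets.

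The members and gene lists were chosen with earlier results of these data known. From each list, up to 4 genes with the lowest p between the ploidies and up to 2 between the haploid lines were named, and for each member the 3 genes with the highest correlation. Dcn, Kcnq1ot1 and the genes named around Igf2 were named after their values were seen. The lines and replicates were grouped by sample titles. Same-numbered replicates did not deviate together (18 correlations of residuals, -0.0288 to 0.0849), so they were not treated as pairs. Alternatives were other scalings, filters, pseudocounts, probe-set summaries, units and left-out arrays or lines. Detection calls were not used here, so the size of a fold near the background is uncertain. Precision is limited by the number of arrays.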

Additional observations from a re-analysis of the deposited data

Results flagged for a closer look

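The haploid lines differed in their distance from the diploid lines on 10 of the 18 tested probe sets, by limma's test of that difference itself, which is haploid EpiSC-2 minus haploid EpiSC-1 on the log2 scale. Igf2 1448152_at differed most (-1.45), with haploid EpiSC-1 further above the diploid lines. Mirg 1457030_at (0.654) and Rian 1440001_at (0.362) were higher in haploid EpiSC-2. Meg3 was higher in haploid EpiSC-2 on 1429256_at (0.815), 1452906_at (0.781), 1436057_at (0.726) and 1429257_at (0.438), and lower on 1452905_at (-0.186), 1452183_a_at (-0.126) and 1436713_s_at (-0.126). None of these lower calls was kept after centring the arrays, and all were kept after quantile normalization. Over the array, 47.8% of tested probe sets differed between the haploid lines. No cause was tested.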

How the results depend on the processing

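The comparison of ploidies has 2 lines a side, and its count moved with the unit and the lines. Limma on line means called 692 of 22519 probe sets. Separate fits, each with fewer features and its own adjustment, called 143 of 13511 under a filter at the 70th percentile, 325 of 11105 with the brightest probe set of each gene and 281 of 10061 with the mean of a gene's probe sets. Without haploid EpiSC-1 19 were called, and without haploid EpiSC-2 223. With arrays as units and the line as a random block 3562 were called. Leaving out single arrays gave 674 to 747 calls between the ploidies. It gave 9549 to 10898 between the haploid lines, 10441 to 11706 between the diploid lines, 12223 to 13415 for haploid EpiSC-2 and 14063 to 15217 for haploid EpiSC-1 against the diploid lines.

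With the brightest probe set of each gene, and with the mean of a gene's probe sets, the counts fell to 6288 and 4616 between the haploid lines (10756 in full), 6196 and 4675 between the diploid lines (11628), 7367 and 5670 for haploid EpiSC-2 (13454), and 8149 and 6466 for haploid EpiSC-1 (15157) against the diploid lines. Centring the arrays changed the split into higher and lower to 7548 and 3654 between the haploid lines (4961 and 5795 as deposited), and to 5785 and 9660 for haploid EpiSC-1 against the diploid lines (8209 and 6948), with the median of all probe sets there at -0.156 and not 0.0426.

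Replicate numbers did not pair the arrays (6 of 12 correlated best with an array of the same number). With a replicate block the counts were 10796 between the haploid lines, 11670 between the diploid lines, 13505 for haploid EpiSC-2 and 15170 for haploid EpiSC-1 against the diploid lines, and with the line as a random block and the replicate block together 3048 between the ploidies.

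Igf2 kept its direction under every alternative run, and its calls between lines were lost only for haploid EpiSC-2 against the diploid lines, with diploid EpiSC-2 alone (2.84e-04) or the mean of both Igf2 probe sets (0.441). Signs changed for Meg3, Rian and Mirg probe sets. Haploid EpiSC-2 minus haploid EpiSC-1 became 0.0323 (Meg3 1436713_s_at) and 0.033 (Meg3 1452183_a_at) after centring, and with gene means 0.223 for Meg3 (from 1439380_x_at) and -0.487 for Wdr20. Diploid EpiSC-2 minus diploid EpiSC-1 became -0.119 (Meg3 1439380_x_at) and -0.0359 (Meg3 1452905_at) after quantile normalization, and with gene means -0.355 for Meg3 (from 1439380_x_at) and -0.352 for Rian (from 1452899_at). Haploid EpiSC-2 against the diploid lines became 0.0243 for Rian with gene means, 0.0374 for Meg3 1426758_s_at against diploid EpiSC-2 alone and -0.0169 for Mirg 1457030_at against diploid EpiSC-1 alone. Haploid EpiSC-1 became 0.368 for Meg3 1428764_at against diploid EpiSC-2 alone and -0.0988 for Rian 1428055_at against diploid EpiSC-1 alone. The causes of these changes were not tested. Dim probe sets such as those of Dlk1 limit what the array can show of that gene.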
